A study of Mus musculus with 6 samples.

Results

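The alpha-defensin genes of the deposited list were the genes whose symbol starts with Defa, together with AY761184, an alpha-defensin-like gene of the same cluster. The rule found 9 genes of the 1420 in the table: Defa2, Defa20, Defa21, Defa22, Defa24, Defa26, Defa28, Defa34 and AY761184. They were measured by RNA-seq of poly(A)-selected, strand-specific libraries from mouse small intestinal organoids, 3 wild type (WT) and 3 Smarcad1 knockout (KO), on a C57BL/6 background. Organoids are epithelial structures grown in Matrigel from intestinal crypts, and RNA came from about 600 of them per condition on day 5. The labels disagree on the Cre driver of the deletion: the genotype label of the KO samples names Vil-Cre, which acts in intestinal epithelium, whereas the growth protocol and the study's methods name ZP3-cre, which acts in the oocyte, with littermate controls. The labels do not say whether the 3 samples of a group came from separate mice, so the p-values measure the spread between these samples, which may be technical. The comparison asks how the defensin transcripts of epithelium grown away from microbes and immune cells differ when the chromatin remodeller Smarcad1 is lost.

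Alpha-defensins, called cryptdins in the mouse, are small cationic peptides that kill bacteria by disrupting their membranes. In the small intestine they are made by Paneth cells at the base of the crypt, stored in secretory granules and released into the crypt lumen. Each is made as a precursor, and in the mouse the protease matrilysin (Mmp7) cuts the precursor to the active peptide. The mature peptide is held in shape by bonds between cysteines near the end of the chain.

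All 9 genes lie on chromosome 8 (GRCm38) within 709.927 kb, from 21025545 to 21735471, each with 2 exons and 1 annotated transcript of between 372 and 503 bases. Gaps between neighbours measured 30.8 to 215 kb, 8 genes are on the plus strand and AY761184 is on the minus strand. The GENCODE M21 annotation gives all 9 the same start and end as the table. It holds 40 genes of this naming, of which 23 are protein-coding and 17 are pseudogenes, and the 14 protein-coding genes outside the table were not analysed here. Values were summed by the authors over the exons of merged transcripts.

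The last 120 coding bases (5′ to 3′, stop codon included, from the GENCODE transcripts) show how alike the members are, with cysteine codons in capitals. They are given for Defa24, the most abundant member, for the near-identical Defa21 and Defa22, for Defa2, which had the largest change, and for the most divergent AY761184.
Defa24: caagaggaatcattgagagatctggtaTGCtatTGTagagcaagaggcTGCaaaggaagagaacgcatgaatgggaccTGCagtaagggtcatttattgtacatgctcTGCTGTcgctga
Defa21: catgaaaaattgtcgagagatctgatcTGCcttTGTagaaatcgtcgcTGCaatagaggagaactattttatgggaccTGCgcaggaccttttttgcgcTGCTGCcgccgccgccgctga
Defa22: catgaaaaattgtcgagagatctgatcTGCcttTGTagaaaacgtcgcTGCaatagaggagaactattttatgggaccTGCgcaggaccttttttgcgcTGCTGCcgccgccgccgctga
Defa2: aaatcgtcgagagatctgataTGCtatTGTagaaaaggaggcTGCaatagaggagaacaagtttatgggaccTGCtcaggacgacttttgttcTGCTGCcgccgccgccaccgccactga
AY761184: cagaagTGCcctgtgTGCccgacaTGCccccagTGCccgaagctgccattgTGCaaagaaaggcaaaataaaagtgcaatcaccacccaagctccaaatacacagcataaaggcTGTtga
Defa24, Defa21, Defa22 and Defa2 each have 6 cysteine codons in the whole coding sequence, all of them in the stretch shown, and the spacing of these codons differs between Defa24 and the others. Defa20, Defa26 and Defa34 also have 6, Defa28 has 7, and AY761184 has 11 in a longer reading frame of 116 codons against 93 to 95 in the others. AY761184 was 62.3% to 64.8% identical to the other members over the coding sequence. Defa21 and Defa22 were 99.3% identical and differ by T114G and T204A, with positions counted from 1 at the A of the start codon and the base of Defa21 first. Defa2 and Defa20 were 99.7% identical and differ by G103C, the base of Defa2 first.

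The authors kept uniquely mapped reads of 50 bp, read in pairs, so a member is counted only where its reads can be told from those of its copies. Of the 50-base stretches of each transcript, 71.9% of Defa24, 66.5% of AY761184 and 59.8% of Defa26 occurred in no other annotated transcript. The share was 36.8% for Defa28, 27.1% for Defa21, 25.1% for Defa22 and 16.0% for Defa34, and it was 0% for Defa2 and Defa20. Defa2 shared 86.7% of its stretches with Defa33 and 86.2% with Defa20, and Defa20 shared 86.7% with Defa32, where Defa33 and Defa32 are members of the cluster outside the table. With stretches of 100 bases the shares rose for 8 of the 9 members, to 100% for Defa24 and AY761184, while Defa2 stayed at 0% and Defa20 came to 0.307%. Only annotated transcripts were searched, so introns and unannotated copies in the genome are not in these shares. The values of Defa2 and Defa20 are therefore uncertain as to which copy they count, and those of Defa21, Defa22, Defa28 and Defa34 rest on part of their transcripts.

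**Figure D1:**
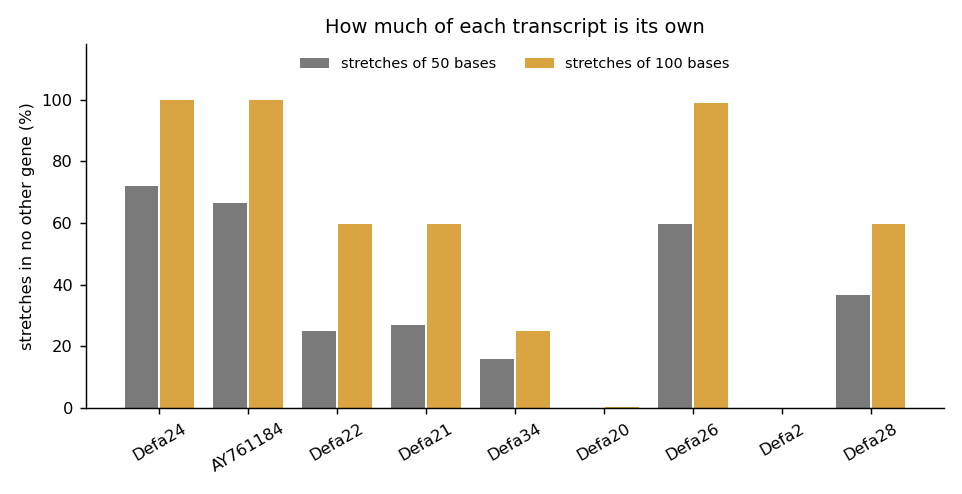
Share of each member's transcript that is its own, in percent of all stretches of 50 bases (grey) and of 100 bases (yellow) that occur in no other GENCODE M21 transcript. Defa24 stands at 71.9% and 100%, whereas Defa2 has no stretch of its own at either length and Defa20 has 0.307% at 100 bases.

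Promoter sequence (RefSeq starts, GRCm38.p6) was at hand for 5 of the 9 members, and the 250 bases before the start are shown because near-identical copies share them letter for letter. Defa21 (chr8:21025295-21025544) and Defa22 (chr8:21162027-21162276) have the same sequence, as do Defa2 (chr8:21378267-21378516) and Defa20 (chr8:21509008-21509257), and Defa28 lies at chr8:21582777-21583026, all on the plus strand. Capitals mark ATCAAAG, the core letters bound by TCF/LEF factors of the Wnt pathway, and TATAAA, the letters of a TATA box.
Defa21 and Defa22: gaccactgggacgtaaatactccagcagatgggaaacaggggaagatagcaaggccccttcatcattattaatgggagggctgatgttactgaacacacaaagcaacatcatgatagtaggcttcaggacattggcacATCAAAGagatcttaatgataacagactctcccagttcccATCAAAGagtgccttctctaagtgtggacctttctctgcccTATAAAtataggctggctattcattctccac
Defa2 and Defa20: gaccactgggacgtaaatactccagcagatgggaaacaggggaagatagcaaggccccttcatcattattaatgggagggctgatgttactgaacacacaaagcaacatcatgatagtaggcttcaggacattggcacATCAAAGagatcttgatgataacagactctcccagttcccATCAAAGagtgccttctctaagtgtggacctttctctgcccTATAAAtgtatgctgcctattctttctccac
Defa28: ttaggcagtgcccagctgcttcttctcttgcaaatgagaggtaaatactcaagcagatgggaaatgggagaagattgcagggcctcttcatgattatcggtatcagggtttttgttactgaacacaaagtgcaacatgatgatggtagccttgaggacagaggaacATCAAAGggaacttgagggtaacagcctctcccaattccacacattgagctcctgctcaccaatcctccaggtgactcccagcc
Over the full window of 300 bases, from 250 before to 50 after the start, the first sequence differed from the second by 7 substitutions (97.7% identity) and from that of Defa28 at far more positions (51.2% identity). ATCAAAG, searched on both strands, was found in 5 of 5 member promoters and in 3.73% of all 32851 promoters of the same length. It began 112 and 72 bases before the start in the 4 cryptdin promoters of the Defa21 and Defa2 kind and 84 bases before it in Defa28. TATAAA began 31 bases before the start in the same 4 promoters and was not found in the Defa28 window, against 13.6% of all promoters that hold it on either strand. The motif letters do not overlap, the copies of a promoter are not independent, and a match describes letters and not binding.

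The libraries held between 1.24e+07 and 1.57e+07 reads, and values are RPM, reads per 1e+06 reads of the library, not divided by length. A count of 3 reads is worth 0.192 to 0.242 RPM, and such limits cover counting error only. Smarcad1 itself was at 94.7 to 105 RPM in WT and at 21.3 to 24.03 RPM in KO, in the direction of the labels. The table holds only genes that the authors' own test had selected on these libraries, so tests on it describe the list and are no independent search. In bulk RNA, more Paneth cells and more defensin mRNA per Paneth cell cannot be told apart.

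All 9 alpha-defensin genes were higher in KO than in WT, and the KO libraries lay above the WT libraries for each of them. Changes ran from 1.57-fold for AY761184 to 5.50-fold for Defa2, with a median log2 change of 1.07. By limma with Benjamini-Hochberg adjustment over the 1420 genes, 9 of 9 members passed the threshold of 0.05 in the direction of higher expression, against 52.5% of the listed genes. In either direction 1419 of the 1420 listed genes passed, so the authors' selection on these libraries had nearly fixed this outcome. The adjusted p-values of single members below are no independent support for a change. Without overlap of the groups, 9 of 9 members were higher in KO, against 51.3% of the listed genes. A log2 change of at least 1 was reached by 5 of 9 members, against 19.0% of the listed genes. The median log2 change of all listed genes was 0.38, and that of the listed genes higher in KO was 0.77. The members have short transcripts, and when a trend of the values with transcript length was removed from each library, 2 of the 9 members passed, Defa2 and Defa28. The 52.5% belongs to the fit without this removal. The share of listed genes that passed after it is not given here, so this count has no background to be read against.

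Defa24 (chr8:21734494-21735471) was the dominant member. It was measured at 2754, 3223 and 3616 RPM in WT replicates 1 to 3 and at 9385, 6416 and 4883 RPM in KO replicates 1 to 3. The lowest KO library was above the highest WT library, and KO replicate 1 stood well above the other KO libraries. Defa24 averaged 3197 ± 431 RPM in WT against 6895 ± 2289 RPM in KO (SD, n = 3 each), a 2.16-fold difference. The log2 change was 1.07 (SE 0.25, limma adjusted p = 0.00805). By RPM, Defa24 ranked between 11 and 15 among the listed genes of the WT libraries, and it ranked 1 in KO replicate 1 and 4 in the other KO libraries.

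Defa22 (chr8:21162277-21163249) had the widest spread in KO. Its values were 103, 104 and 126 RPM in WT and 468, 243 and 179 RPM in KO. KO replicate 1 was 2.62 times as high as KO replicate 3, and all 3 KO values were above WT. The log2 change was 1.30 (SE 0.34, limma adjusted p = 0.0112). Its near-identical copy Defa21 (chr8:21025545-21026516) was at 59.9, 79.4 and 85.4 RPM in WT and at 210, 158 and 123 RPM in KO. The order of the libraries was the same as for Defa22, with a log2 change of 1.11 (SE 0.23, limma adjusted p = 0.00582). The ratio of Defa22 to Defa21 was 1.71, 1.31 and 1.47 in WT and 2.23, 1.53 and 1.46 in KO, so the groups overlapped. Summed, the copies rose from 163, 184 and 211 RPM in WT to 678, 401 and 301 RPM in KO, 2.48-fold between the means.

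Defa2 (chr8:21378515-21379495) showed the largest change at a low level. It was measured at 3.81, 2.94 and 6.27 RPM in WT and at 29.6, 26.1 and 15.8 RPM in KO, which correspond to 49, 46 and 96 reads and to 368, 380 and 226 reads. The lowest KO value was above the highest WT value by more than the range within WT. The log2 change was 2.45 (SE 0.34, limma adjusted p = 0.00191). Defa20 (chr8:21509258-21510237), which differs from it at a single coding base, was at 38.2, 39.1 and 63.8 RPM in WT and at 127, 83.3 and 68.5 RPM in KO. WT replicate 3 came close to KO replicate 3, and the log2 change was 0.98 (SE 0.29, limma adjusted p = 0.0168). Without WT replicate 1 or WT replicate 2 the adjusted p of Defa20 was 0.0518 and 0.0530. The ratio of Defa2 to Defa20 was 0.0998, 0.0752 and 0.0982 in WT and 0.233, 0.313 and 0.231 in KO. Both transcripts share all of their 50-base stretches with each other or with other copies, and how their reads were divided was not tested. Their sum was 42.0, 42.0 and 70.1 RPM in WT and 157, 109 and 84.4 RPM in KO, 2.28-fold between the means.

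Defa28 (chr8:21583006-21583961) was the least abundant member, at 0.622, 0.958 and 1.44 RPM in WT and 4.35, 3.50 and 2.24 RPM in KO. These are 8, 15 and 22 reads in WT and 54, 51 and 32 reads in KO, above the limit of 3 reads in every library. The log2 change was 1.67 (SE 0.34, limma adjusted p = 0.00546). All that Defa28 shares is shared with cluster genes outside the table, including 63.0% of its 50-base stretches with the pseudogene Defa-ps18.

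Defa26, Defa34 and AY761184 had the smallest changes. Defa26 (chr8:21618183-21618972) was at 38.5, 41.5 and 53.1 RPM in WT and at 98.5, 71.9 and 59.5 RPM in KO, with a log2 change of 0.77 (SE 0.22, limma adjusted p = 0.0141). Defa34 (chr8:21665797-21666732) was at 42.2, 54.4 and 57.7 RPM in WT and at 115, 67.5 and 69.2 RPM in KO, with a log2 change of 0.67 (SE 0.24, limma adjusted p = 0.0290). In both, KO replicate 1 was the highest library and the lowest KO library lay just above the highest WT library. AY761184 (chr8:21702519-21703645) was at 140.4, 148 and 188 RPM in WT and at 322, 237 and 190.4 RPM in KO, so that KO replicate 3 and WT replicate 3 nearly met. Its log2 change was 0.63 (SE 0.22, limma adjusted p = 0.0254). Without WT replicate 1, WT replicate 2, KO replicate 1 or KO replicate 2 in turn, the adjusted p of AY761184 was 0.0754, 0.0730, 0.0549 and 0.0586. For Defa34 it was 0.0875 and 0.0557 without WT replicate 1 and WT replicate 2. Without KO replicate 1 the log2 change of Defa34 fell to 0.42.

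**Figure D2:**
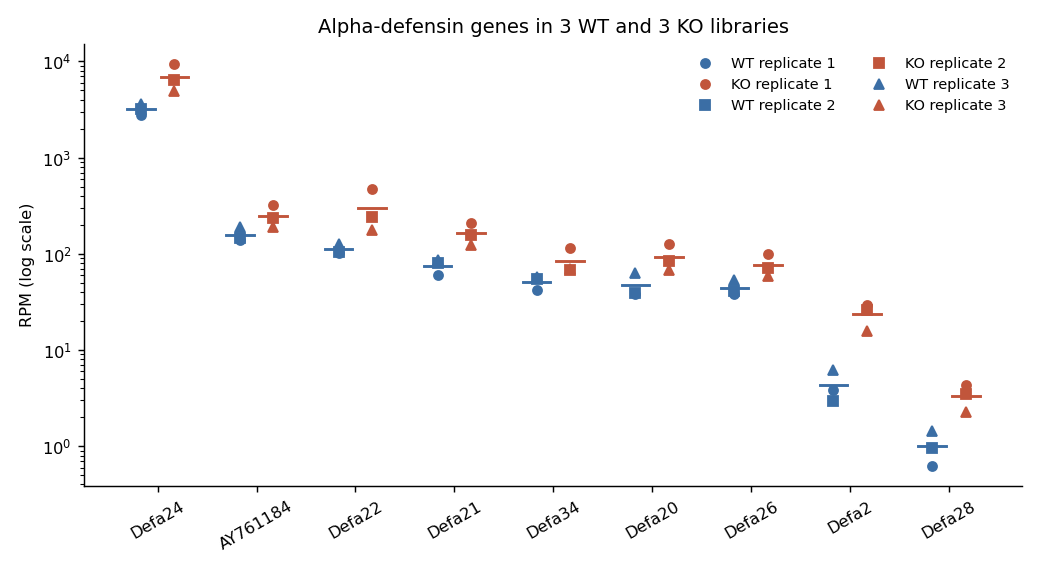
RPM of the 9 alpha-defensin genes in each library on a log axis, in order of their WT mean, with WT in blue, KO in red, a marker shape for each replicate number and a short line at the group mean. For every gene the KO libraries lie above the WT libraries, and KO replicate 1 (circle) is the highest; Defa24 spans 2754 to 9385 RPM and Defa28 spans 0.622 to 4.35 RPM.

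Summed over the 9 listed genes, uniquely mapped alpha-defensin reads made up 0.318%, 0.369% and 0.420% of all reads in WT and 1.08%, 0.731% and 0.559% in KO. The 14 protein-coding genes of this naming outside the table are not in this sum, nor are reads that could not be placed. It is therefore not the total of the cluster, and the word family stands here for the 9 genes that the authors' test had selected. The sum averaged 3690.1 ± 508 RPM in WT against 7885 ± 2633 RPM in KO (SD, n = 3 each), a 2.14-fold difference. The log2 change of the sum was 1.05, with an exact two-sided permutation p of 0.1, the smallest that 3 against 3 libraries allow. Leaving out KO replicate 1 lowered it to 0.80, leaving out KO replicate 3 raised it to 1.27, and without Defa24 it was 0.96. With the length trend removed it was 0.11, with an exact permutation p of 0.4.

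The make-up of the family was dominated by Defa24 in every library. The scale of RPM per kb of exon adjusts for length but not for the share of each transcript that is unique. On this scale Defa24 was at 7631 ± 1029 (SD, n = 3) in WT, followed by AY761184 at 315 ± 50.9, Defa22 at 265 ± 31.0 and Defa21 at 179 ± 31.8. Defa34 at 137 ± 21.7, Defa26 at 119 ± 20.6 and Defa20 at 111 ± 34.3 came next, and Defa2 at 10.2 ± 4.05 and Defa28 at 2.51 ± 1.02 were last. In WT the ranges of AY761184 and Defa22 overlapped, as did those of Defa21 and Defa34, of Defa34 and Defa26 and of Defa26 and Defa20. Within each WT library, however, AY761184 was above Defa22, Defa21 above Defa34 and Defa34 above Defa26, and of these neighbours Defa26 and Defa20 alone changed places, in WT replicate 3. The other steps, from Defa24 to AY761184, from Defa22 to Defa21, from Defa20 to Defa2 and from Defa2 to Defa28, were between members whose WT ranges did not overlap. In KO, Defa22 was above AY761184 in mean level, at 708 ± 363 against 496 ± 132, with ranges that overlapped. These levels count uniquely mapped reads only, so reads that could not be placed between copies are not in them. The unique share of 50-base stretches was 66.5% for AY761184 against 25.1% for Defa22. It was 27.1% for Defa21, 16.0% for Defa34 and 59.8% for Defa26. The order given here is therefore one of counted reads, and the order of the transcripts themselves may differ.

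Of the level per length counted for the 9 listed members, Defa24 held 87.03% ± 0.532 in WT and 87.7% ± 0.333 in KO (SD, n = 3 each). The exact permutation p was 0.2, with an adjusted p of 0.257 over the 9 members. Members with few unique stretches may be undercounted in these shares. The share of AY761184 was 3.69%, 3.34% and 3.75% in WT and 2.50%, 2.71% and 2.85% in KO. The shares of Defa34 and Defa26 were likewise lower in every KO library than in every WT library, and their means changed by -0.353 and -0.241 percentage points. Defa2 held 0.115% in WT and 0.301% in KO, and Defa28 held 0.0279% and 0.0450%, both higher in every KO library. Each of these 5 members had an exact permutation p of 0.1 and an adjusted p of 0.18, so none passed in a design that cannot go lower. The shares of Defa20, Defa21, Defa22 and Defa24 overlapped between the groups. With near-identical copies summed, Defa2 and Defa20 held 1.31%, 1.13% and 1.65% in WT and 1.44%, 1.48% and 1.49% in KO. These groups overlapped (exact permutation p = 0.6), so the higher share of Defa2 was not seen in the sum. Defa21 and Defa22 together held 5.14%, 5.00% and 5.06% in WT and 6.32%, 5.51% and 5.41% in KO. The KO values were all above WT, with an exact permutation p of 0.1 and an adjusted p of 0.14.

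The KO libraries spread apart in the same order for nearly all members. KO replicate 1 was the highest KO library for 9 of 9 members, against 32.7% of all listed genes. KO replicate 3 was the lowest for 8 of 9 members, the exception being Defa34, against 505 of the 1420 listed genes. In WT, replicate 3 was the highest library for 9 of 9 members, against 35.6% of all listed genes. Among the 13 other listed genes with transcripts no longer than the longest member, KO replicate 1 was the highest KO library in 76.9% and WT replicate 3 the highest WT library in 69.2%. Among the 11 other Paneth cell granule products in the table these shares were 90.9% and 36.4%. KO replicate 3 was the lowest KO library for 11 of the 13 short genes and for 11 of the 11 granule products. The coefficient of variation over 3 libraries had a median of 31.5% in KO and 17.3% in WT over the members, against 13.4% and 8.34% over all listed genes. Over the 13 other short genes the medians were 33.2% in KO and 12.6% in WT, and over the 11 other granule products they were 24.8% and 8.61%, so the wide spread in KO was not particular to the defensins. The coefficient of variation was higher in KO than in WT for 7 of 9 members, with Defa2 and Defa28 as the exceptions. The same held for 930 of the 1420 listed genes, 9 of the 13 other short genes and 10 of the 11 other granule products. For Defa22 the coefficient reached 51.3% in KO. With the length trend removed the medians were 12.6% in KO and 15.2% in WT, so the order of the groups turned. The 9 genes share these libraries and in part their sequence, so they are not 9 separate measures of the spread.

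Of the other Paneth cell granule products, 11 of 17 on the list were in the table, and 11 of 11 passed the limma test as higher in KO, against 52.5% of the listed genes. Since 1419 of the 1420 listed genes passed in either direction, passing was nearly fixed by the selection into the table. The median log2 change of these products was 1.20, beside 0.77 for the listed genes higher in KO. Lyz1, the Paneth cell lysozyme, was at 2885, 3006 and 2968 RPM in WT and at 8302, 8404 and 7794 RPM in KO. Its KO values lay close together, with a coefficient of variation of 4.00% against 33.4% for the summed defensins, and its log2 change was 1.47. Itln1, an intelectin that binds microbial sugars, was at 2645, 2856 and 3072 RPM in WT and at 8182, 6465 and 5331 RPM in KO, with the order of the libraries that the defensins had. Ang4, a bactericidal ribonuclease of the granules, was at 446, 516 and 523 RPM in WT and at 1139, 944 and 790 RPM in KO, in the same order again. Of the bactericidal lectins of the Reg3 group, Reg3b had a log2 change of 2.66 and Reg3g one of 2.13, both above that of the defensin sum. The remaining genes of this list were Reg4, Mptx1, Lyz2, Pnliprp2, Clps and Guca2b, with log2 changes between 0.67 and 1.46. Lyz2 is also on the immune cell list used below, so the list is not one of Paneth cells alone.

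The ratio of summed defensin RPM to Lyz1 RPM was 1.10, 1.23 and 1.41 in WT and 1.30, 0.869 and 0.717 in KO. The groups overlapped because KO replicate 1 lay within the WT range, whereas the other KO libraries lay below it. The log2 change of the ratio was -0.41, with an exact two-sided permutation p of 0.3 and an adjusted p of 0.5 over the 5 ratios computed. Without KO replicate 1 it was -0.65, and without KO replicate 3 it was -0.23. With the length trend removed it was -0.78, with an exact permutation p of 0.1. Against all 11 other granule products the ratio was 0.484 ± 0.0544 in WT and 0.415 ± 0.0755 in KO, and against Itln1 it was 1.29 ± 0.0819 and 1.16 ± 0.136 (SD, n = 3 each). Against Ang4 it was 7.44 ± 0.510 in WT and 8.09 ± 1.22 in KO (SD, n = 3 each). None of the 5 ratios passed the exact test.

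**Figure D3:**
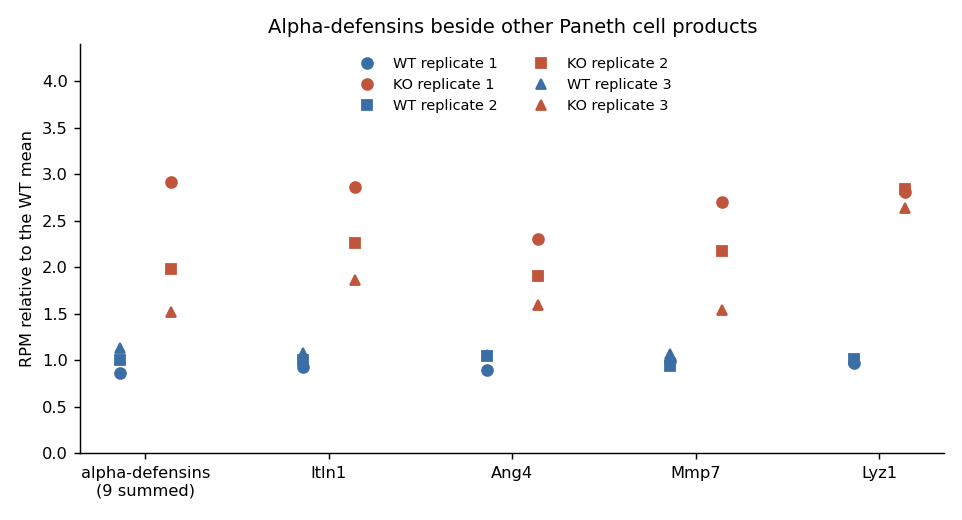
Summed alpha-defensin RPM and the RPM of Itln1, Ang4, Mmp7 and Lyz1 in each library, each divided by its own WT mean, with WT in blue, KO in red and a marker shape for each replicate number. The KO values of the defensins fan out from KO replicate 1 down to KO replicate 3, as do those of Itln1, Ang4 and Mmp7, while the KO values of Lyz1 lie together near its 2.77-fold mean.

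Among genes of Paneth cell specification and defensin processing, 8 of 32 on the list were in the table and 8 of 8 passed as higher in KO, against 52.5% of the listed genes. Their median log2 change was 0.56, below the 0.77 of the listed genes higher in KO. Mmp7, the protease that activates the precursors, was at 146, 138 and 156 RPM in WT and at 396, 318 and 225 RPM in KO, with a log2 change of 1.06 (SE 0.21, limma adjusted p = 0.00509). The ratio of summed defensins to Mmp7 was 25.2 ± 2.96 in WT and 25.0 ± 2.10 in KO (SD, n = 3 each), with an exact permutation p of 1. Sox9, a transcription factor required for Paneth cells, had a log2 change of 0.56, and the receptor Ephb3, which keeps Paneth cells at the crypt base, had one of 0.57. Ern2, an endoplasmic reticulum stress sensor, was at 0.52 and Rab3d, a GTPase of secretory granules, at 0.30. Egf, a growth factor that Paneth cells supply to stem cells, was at 1.32, and Habp2 and Nupr1 were at 0.80 and 0.37. The genes of this list absent from the table were not analysed here.

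Markers of other cell types changed too, some in the direction of the defensins and some against it. They are read here against 52.5% of the listed genes called higher and 47.4% called lower in KO. Of the goblet cell list, 9 of 16 genes were in the table, 8 passed as higher and 1 as lower in KO, and their summed level was 2194 to 2448 RPM in WT and 3352 to 6019 RPM in KO. Of the enteroendocrine list, 5 of 17 were in the table and all 5 passed as higher, at 260 to 318 RPM in WT and 428 to 613 RPM in KO in sum. Of the enterocyte list, 10 of 18 were in the table, 9 passed as lower and 1 as higher, at 13654 to 15369 RPM in WT and 9158 to 9724 RPM in KO in sum. Immune cells had 2 of 8 markers in the table, Itgam, called lower, and Lyz2, called higher, and neutrophils and stroma had 0 of 7 each. The stem cell list had Rnf43 alone in the table, called higher, and the tuft cell list had Dclk1 alone, called lower. The part of these shifts in cell type markers in the defensin result was not tested.

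By Pearson's r between deviations from the group mean of log2(RPM + 0.1) over the 6 libraries, the members followed the family sum with r between 0.73 for Defa2 and 1.00 for Defa24, which makes up most of that sum. The 5 other genes with the highest r were Itln1 (0.997), Rps10 and Dcxr (0.993 each), Rpl3 (0.993) and Sct (0.992). Rps10 and Rpl3 encode ribosomal proteins, Dcxr a carbonyl reductase and Sct the hormone secretin. An r of at least 0.9 was reached by 96 of 1411 other genes, so the pattern is not one of Paneth cell products alone. The libraries share depth and preparation across all genes, and the r values are a description of 6 points. Mmp7 had an r of 0.915, Ang4 of 0.982 and Lyz1 of 0.707.

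Transcript length moved with both the change and the spread of the KO libraries. All 9 members are among the 22 listed genes with a longest transcript of at most 503 bases. The 13 others of these, of 326 to 496 bases, had a median log2 change of 0.76 with 11 of 13 higher in KO, against a median of 1.07 for the members. Their median log2 ratio of KO replicate 1 to KO replicate 3 was 0.79, against 0.89 for the members. Over the other listed genes of 1000 to 2000 bases these medians were 0.59 and 0.24, and over those of 2000 to 4000 bases they were -0.29 and -0.08. Among the 13 short genes were Spink4 and Tff3, both goblet cell products, with log2 changes of 1.07 and 1.04, named here after their values were seen.

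With a loess curve over transcript length removed from each library, Defa2 had a log2 change of 1.52 (limma adjusted p = 0.00200) and Defa28 one of 0.71 (limma adjusted p = 0.0347). Defa22, Defa21, Defa24 and Defa20 were at 0.36, 0.17, 0.13 and 0.04 and did not pass. AY761184, Defa26 and Defa34 turned to -0.23, -0.22 and -0.31, with limma adjusted p-values of 0.0870, 0.101 and 0.103. When the curve was fitted without the 9 members, a choice made after seeing the data, Defa2 was at 1.62, Defa28 at 0.82 and Defa24 at 0.23, and the same 2 members passed. Of the 1397 genes with a length, 22 are no longer than the longest member, the members included. The curve was fitted with a wide span, so its short end also draws on many longer genes. Lyz1, with a transcript of 1263 bases, differs from the defensins in length as well as in spread. Its log2 ratio of KO replicate 1 to KO replicate 3 was 0.09. For Itln1 and Mmp7, of 1141 and 1068 bases, that ratio was 0.62 and 0.81. The part of transcript length in the defensin result was not tested.

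**Figure D4:**
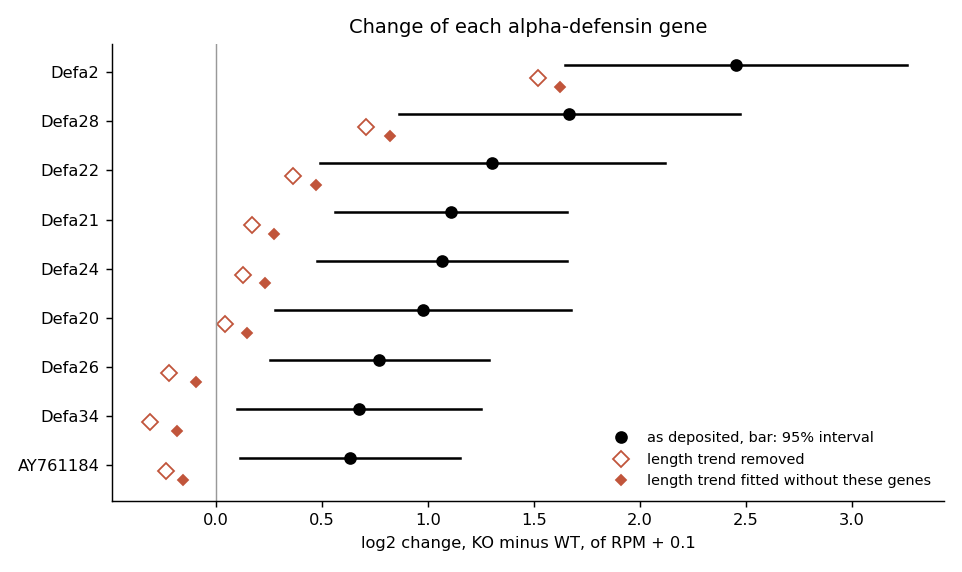
Log2 change between KO and WT of each member as deposited (black, bars show the 95% interval of the limma fit), with the length trend removed (open red) and with that trend fitted without these genes (filled red). As deposited all 9 lie above 0; with the trend removed AY761184, Defa26 and Defa34 lie below 0 and Defa2 lies at 1.52 instead of 2.45.

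**Figure D5:**
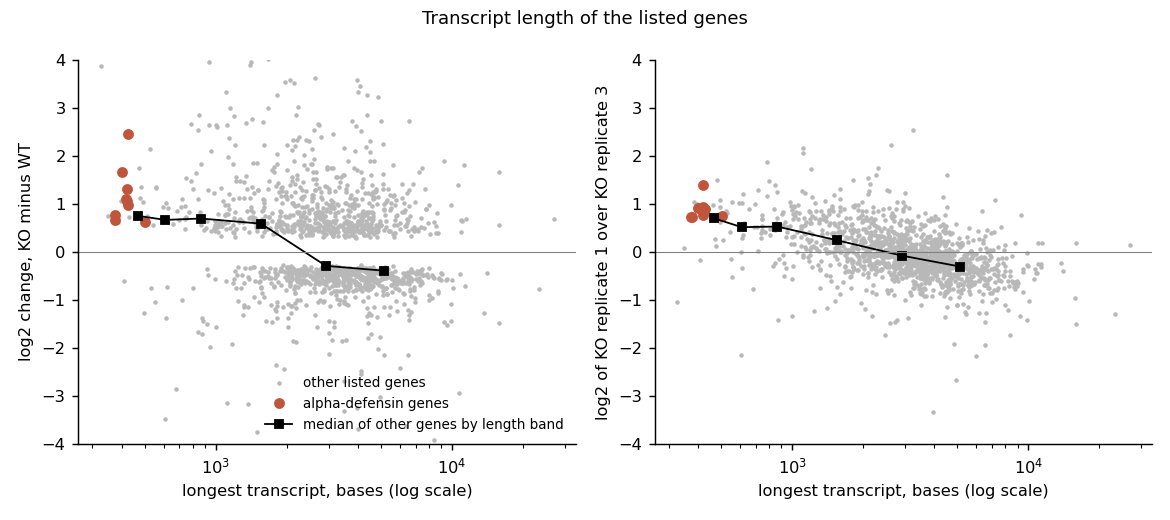
Log2 change between KO and WT (left) and log2 ratio of KO replicate 1 to KO replicate 3 (right) against the longest transcript (log axis) for the 1397 listed genes with a length, alpha-defensin genes in red, others in grey, and in black the median of the others in bands of length. The members sit at the short end with medians of 1.07 and 0.89, beside black medians of 0.75 and 0.70 in the band of 300 to 520 bases; 14 genes fall beyond the axis limit of 4 on at least 1 panel.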

How the data were processed

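The authors trimmed reads with Trim Galore 0.4.2, mapped them to GRCm38 with HISAT2 2.0.3, and, in SeqMonk, summed those that mapped uniquely across exons of merged transcripts. The authors tested raw counts with DESeq2 and deposited only the 1420 genes that passed. The deposited values are RPM, scaled by the authors to library depth on a linear scale. The deposited table also holds the authors' corrected p-values from that test, which were not used. Every value was a whole multiple of a step taken as 1 read (tolerance 0.1 read), which gave the depths.

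Genes were tested with limma 3.58.1 (R 4.3.3) on log2(RPM + 0.1), two-sided, WT against KO with no covariate, with Benjamini-Hochberg adjustment over all 1420 genes and a threshold of 0.05. This scale understates changes of low genes. In simulated reads of 1420 genes for the KO against WT comparison, the fit found 200 of 200 genes with a set log2 change of 1 and made 8 false calls. These changes were set only in genes above the median level, without a trend over length. The simulated spread between libraries was narrower than that of the members in KO. The simulation therefore checks the code and does not show how well the fit works for the members. Sums, shares and ratios were compared by exact permutation tests in scipy 1.17.1. Transcripts and lengths came from GENCODE M21 and promoters from RefSeq (GRCm38.p6). Length was that of the longest transcript.

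Genes named were all members, Smarcad1, the table's genes of the Paneth cell lists, and the 5 other genes whose deviations most resembled those of the family sum. Members, lists and tests were chosen with earlier results of these data known. Alternatives were a pseudocount of 1, a filter at the 25th percentile, centring on the median gene, a replicate block, an intensity trend, removal of the length trend and leaving out each library. The planned grouping of members by protein identity used coding bases instead, with a limit of 95%.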

Additional observations from a re-analysis of the deposited data

How the results depend on the processing

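Over 13 alternatives and the 9 members, 89 of 115 values kept their direction and side of the threshold, 20 lost the threshold and 6 changed direction. The 6 were all under removal of the length trend: AY761184 (-0.23), Defa26 (-0.22) and Defa34 (-0.31), and -0.16, -0.093 and -0.19 in the same order with the curve fitted without the members. Both versions left 2 members called instead of 9, for a cause that was not tested. Calls among the listed genes under these fits are not reported here, so the fall to 2 members cannot be set against a background. The number called was 7 when libraries were centred on the median gene and 7 with the filter, which removed Defa2 and Defa28, and it ran from 6 to 9 without each library in turn. With the replicate number as a block 7 members passed, and AY761184 (adjusted p = 0.0566) and Defa34 (adjusted p = 0.0635) did not. The pairing check gave correlations of -0.08, 0.09 and 0.06 between same-numbered libraries, so the numbers were not taken to pair samples. Without the length trend, members varied by a median coefficient of 12.6% among KO and 15.2% among WT libraries instead of 31.5% and 17.3%, which turned the order of the groups. Stretches of 100 bases raised the median share of unique sequence from 27.1% to 59.7%, since longer stretches meet fewer copies. With Ang4 in place of Lyz1, a choice made after seeing the data, the log2 change of the ratio was 0.11 instead of -0.41, and neither passed.
Depth limits Defa28 most, with 8 to 54 reads per library. Read placement limits Defa2 and Defa20, and 3 libraries per group keep exact tests of sums and shares at 0.1 or above.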
